A study of Rattus norvegicus with 6 samples.

Results

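The insulin-like growth factor (IGF) axis and the imprinted RNA H19 were described in 2 kinds of rat pluripotent cells, embryonic stem (ES) cells and a kind the labels call flat pluripotent stem (fPS) cells. The members were the 23 probe sets whose gene symbol in the platform annotation is exactly Igf1, Igf2, Igf1r, Igf2r, Igfbp2, Igfbp3, Igfbp4, Igfbp5, Igfbp6 or H19, out of 31042 probe sets on the array. They were chosen by gene name, with the fPS minus ES differences of these same arrays already known, so the differences below are descriptions without a test of the members. A probe set is a group of short probes against a transcript, or against several where its suffix says so (5 of the 23), and all 10 genes had at least 1, with 7 genes having several. No probe set with several symbols included a member (0 of them).

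RNA of cells from the Sprague-Dawley strain was measured on Affymetrix arrays after biotin labelling, with 3 arrays of ES cells and 3 of fPS cells, each from its own sample. The groups come from the sample titles and the cell type field; the description field calls the fPS samples embryonic stem cells as well. The protocols are the same for both groups: a serum-free medium with LIF, the GSK3 inhibitor CHIR99021 and the MEK inhibitor PD0325901, and maintenance with serum on mouse embryonic fibroblasts (feeders) whose division was blocked with mitomycin C. Cells were taken from the dish by hand, with no sorting step named, and the labels name no transgene, passage, line or separate culture. The spread between arrays of a group may therefore be technical.

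Array medians lay between 36.2 and 45.3 intensity units. Of 18 pluripotency markers listed, 11 had a probe set, and all 11 were above the array median on all 6 arrays, among them Sox2, Esrrb, Klf2 and Epcam. Their levels were not all alike in the groups. Sox2 had 3427, 3266 and 4618 in ES and 2838, 1856 and 1281 in fPS. Lin28a was also lower on every fPS array, and Klf5 was higher on every fPS array. Over all genes 11.3% did so in each direction. Of 24 fibroblast markers 5 were above the median on all 6 arrays and 5 below it on all 6. Every value of a member is a level of its own probe set, and levels of different probe sets are not compared.

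IGF1 and IGF2 are secreted peptides related to insulin. Both act through the tyrosine kinase receptor IGF1R, which signals to PI3K, AKT and ERK, whereas IGF2R, also the cation-independent mannose 6-phosphate receptor, takes IGF2 to the lysosome for breakdown. IGF-binding proteins hold the peptides outside the cell and can block or prolong their action. H19 is a long non-coding RNA next to Igf2 and, in mammals, is made from the maternal copy where Igf2 is made from the paternal copy; IGF2R is imprinted in rodents too. In the RefSeq annotation of rat assembly GRCr8, H19 and Igf2 were neighbours on chromosome 1 with no other named protein-coding gene between them. Igf1r and Igf2r also lay on chromosome 1, Igfbp2 and Igfbp5 were neighbours on chromosome 9, Igfbp3 lay beside Igfbp1 on chromosome 14, Igfbp4 was on chromosome 10, and Igf1 and Igfbp6 were on chromosome 7.

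H19 is also the host of a microRNA, and its signal differed between the groups; the mature microRNAs of the H19 and Igf2 loci are shown because they are further products of the genes described. They had no probe set on the array (0 of 4) and were not measured. Sequences are those of RefSeq on GRCr8, written 5′ to 3′, with the seed (bases 2 to 8) in capitals. The 2 of H19 lie at chr1:207161800-207161821 and chr1:207161766-207161786, those of Igf2 at chr1:207247903-207247924 and chr1:207247865-207247886, all on the minus strand. Each of the 4 seeds occurred once among 724 mature rat microRNAs of the table, so none of them was shared.
rno-miR-675-5p (H19): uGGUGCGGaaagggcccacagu
rno-miR-675-3p (H19): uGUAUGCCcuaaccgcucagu
rno-miR-483-5p (Igf2): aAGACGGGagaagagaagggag
rno-miR-483-3p (Igf2): cACUCCUCcccucccgucuugu

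Across the axis, H19, Igf1, Igf2r and Igfbp3 were higher on the fPS arrays, Igf1r was lower by its brighter probe set with overlapping groups, and the brightest probe sets of Igfbp2, Igfbp4, Igfbp5 and Igfbp6 differed by less than the spread between arrays. Igf2 varied more between arrays of the same group than between the groups. Values were analysed as log2(intensity + 16), and the difference is the fPS mean minus the ES mean on that scale, and it is smaller than the true fold for dim probe sets. Of 23 member probe sets, 19 had a positive and 4 a negative difference, with a median of 0.22, beside a median of 0.014 over all 31042 probe sets. For 6 of the 23 the lowest fPS array exceeded the highest ES array, and for 0 the reverse held; over all probe sets these shares were 10.1% and 9.88%. At an adjusted p of 0.05 (limma, Benjamini-Hochberg over all probe sets), 3 members were called (H19, and 1 probe set each of Igf1 and Igfbp3), all higher in fPS, where 0.693% of all probe sets, 215, were called in either direction. The 215 were 124 higher and 91 lower, and with each array centred on its median they were 376, with 152 higher. As the members were picked with this contrast known, nothing is read from these counts. With fewer arrays the calls were lost while the differences stayed: leaving out any single ES array, or fPS replicate 2 or 3, left 0 members called and from 0 to 27 of all probe sets, and leaving out fPS replicate 1 left 1 (Igf1) and 162. Over these 6 fits the difference lay between 2.20 and 2.54 for Igf1, between 1.40 and 1.86 for Igfbp3 and between 1.75 and 2.37 for H19. A pseudocount of 1 gave 0 and of 64 gave 1.

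**Figure D1:**
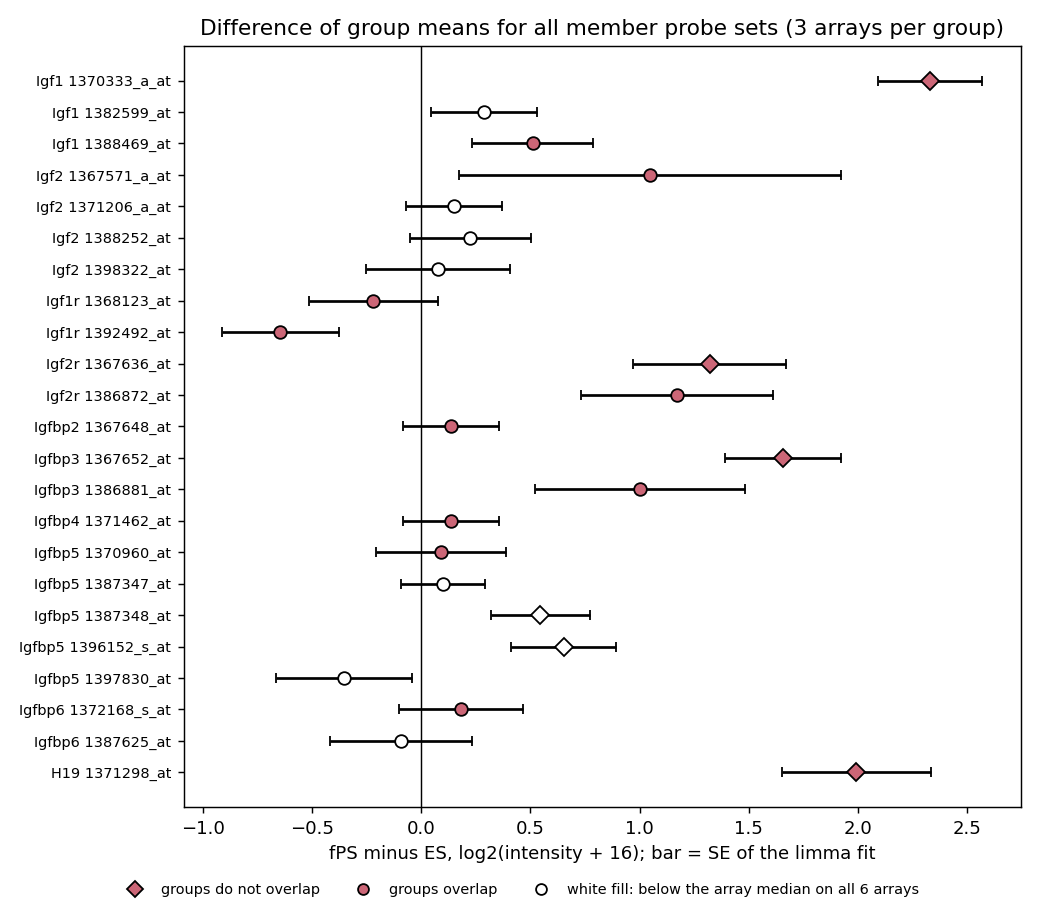
Difference between the fPS and ES means of log2(intensity + 16) for all 23 member probe sets, with the SE of the limma fit as a bar (3 arrays per group). Diamonds mark the 6 probe sets whose groups do not overlap, and white symbols the 9 that lay below the array median on all 6 arrays. The differences of H19 and of 1 Igf1 probe set (1.99 and 2.33) lie farthest to the right.

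The brightness of the probe sets differed widely. Of the 23, 8 were above the array median on all 6 arrays, 9 were below it on all 6 and 6 were above it on some. The 9 dim ones were 1 of 3 for Igf1, 3 of 4 for Igf2, 4 of 5 for Igfbp5 and 1 of 2 for Igfbp6. Detection calls were not used here, so whether these 9 measured any transcript was not tested.

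H19 had 1 probe set. Its intensity was 156, 131 and 330 on ES replicates 1 to 3 and 705, 706 and 1042 on fPS replicates 1 to 3. The lowest fPS array was above the highest ES array, and in both groups replicate 3 was the highest. The means were 206 ± 109 (SD, n = 3) in ES and 818 ± 194 in fPS, a log2 difference of 1.99 (SE 0.341). Leaving out both arrays numbered 3 gave 2.18. In the annotation H19 is overlapped by an uncharacterised lncRNA gene, whose part in the signal was not tested.

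The mean level of endoderm markers was higher on every fPS array than on any ES array. So were H19 and the brightest probe sets of Igf1, Igf2r and Igfbp3 described below. Of 20 genes listed as markers of endoderm, a cell type that pluripotent cultures can form, 18 had a probe set. In ES their mean log2 level was 6.22, 6.05 and 6.56, and in fPS 6.98, 6.95 and 7.10, with no overlap, and their summed intensity was 5354 to 7180 in ES and 8542 to 10012 in fPS. Most of that sum was Apoe, with 3904, 4707 and 4184 in ES and 5438, 5309 and 5456 in fPS (difference 0.34, SE 0.194). Of the 18, 0 passed over all probe sets, with a median difference of 0.75; 5 were below the array median on all 6 arrays, the transcription factors Foxa1 and Hnf4a, the serum proteins Afp and Apoa1 and the adaptor Dab2. Sox17, a transcription factor that defines endoderm, had 52.0, 63.8 and 110 in ES and 270, 214 and 192 in fPS, and Gata4 17.3, 20.1 and 21.8 against 56.0, 50.9 and 67.7. Single markers did not all go this way. Afp and Apoa1 had differences of -0.12 and -0.23, and the groups overlapped for others, among them Gata6, Lamb1 and Sparc. The pattern was not confined to the endoderm list. Of the fibroblast list, Mmp2 had 32.2, 81.1 and 115 in ES and 177, 202 and 236 in fPS. Postn had 1.06, 16.2 and 22.7 against 39.0, 45.0 and 60.6, whereas Fstl1 was lower on every fPS array. The part of endoderm cells or of fibroblasts in the values of H19, Igf1, Igf2r and Igfbp3 was not tested. In bulk samples like these, more cells of a type and more RNA per cell cannot be told apart.

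The ligand Igf1, which in the body is made largely by the liver under growth hormone, had 3 probe sets. On the brightest the intensity was 2.46, 4.21 and 13.5 in ES and 103, 84.6 and 102 in fPS. The ES values were below the array medians, between percentiles 6.37 and 31.2 of all probe sets, and the fPS values lay between percentiles 64.9 and 69.9. The difference was 2.33 (SE 0.239), from means of 6.71 ± 5.92 (SD, n = 3) and 96.4 ± 10.2, and it was 1.18 with a pseudocount of 64 and 3.92 with 1, since the ES signal was so low. The other 2 probe sets had smaller differences of the same sign. On the next brightest the values were 10.5, 18.5 and 19.1 in ES and 46.3, 29.7 and 16.5 in fPS, where fPS replicate 3 fell inside the ES range (difference 0.51, SE 0.276). On the dimmest all 6 values lay between 0.443 and 10.9 (difference 0.29, SE 0.243). The higher Igf1 level in fPS thus rests on 1 of 3 probe sets, which by its suffix matches several transcripts of a gene.

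Igf2, the main fetal IGF, had 4 probe sets, of which only the brightest was above the array median on any array (5 of 6). Its intensity was 36.0, 92.8 and 571 in ES and 177, 165 and 823 in fPS. Replicate 3 was the highest array in each group, and ES replicate 3 lay above fPS replicates 1 and 2, so the groups overlapped. The means were 233 ± 294 (SD, n = 3) and 388 ± 376, the difference was 1.05 with an SE of 0.875, and it ran from 0.29 without ES replicate 1 to 2.04 without ES replicate 3. The SD within groups, 1.55 on the log2 scale, was at percentile 99.98 among all probe sets and was the highest of the member probe sets. The other 3 probe sets lay between 1.45 and 26.9 on all arrays, below the medians, with differences from 0.076 to 0.22.

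The order of the arrays by Igf2 was close to their order by the mean level of collagen, a product of fibroblasts such as the feeders. The feeders are mouse cells and the probe sets are annotated to rat genes, so how much feeder RNA they register is unknown. The collagen level is therefore not a measure of feeder content. The mean log2 level of 8 collagen markers was 5.64, 6.34 and 7.70 in ES and 6.62, 6.35 and 7.40 in fPS, and the summed intensity of the 8 ran from 352 to 2535 in ES and from 598 to 1731 in fPS. From low to high the arrays were ES 1, ES 2, fPS 2, fPS 1, ES 3, fPS 3 for Igf2, and the same for mean collagen except that ES 3 was above fPS 3. Single collagens did not all follow it. Col6a2 had 36.5, 41.0 and 1.63 in ES, and Col5a1 had a difference of -0.63 (SE 0.263). The collagens are 8 of 24 fibroblast markers, which together summed to 2666 to 3891 in ES and 3371 to 4027 in fPS, with 0 called. The other 16, looked at after their values were seen, did not all follow that order. Their summed intensity was 2522, 2120 and 1356 in ES and 2676, 3008 and 2296 in fPS, lowest on ES replicate 3. Timp1, a protease inhibitor and the brightest of them, had 2106, 1722 and 590 in ES. The mean log2 level of the 16, in which each gene counts equally, was 5.51, 5.58 and 6.07 in ES and 5.84, 5.90 and 6.16 in fPS, highest on replicate 3 of each group. Fbn1, Pdgfrb, Thy1, Lox and Prrx1 were the 5 below the median throughout. Without both arrays numbered 3, Igf2 had 36.0 and 92.8 in ES and 177 and 165 in fPS, a difference of 1.31. The part of feeder RNA in the Igf2 signal was not tested.

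**Figure D2:**
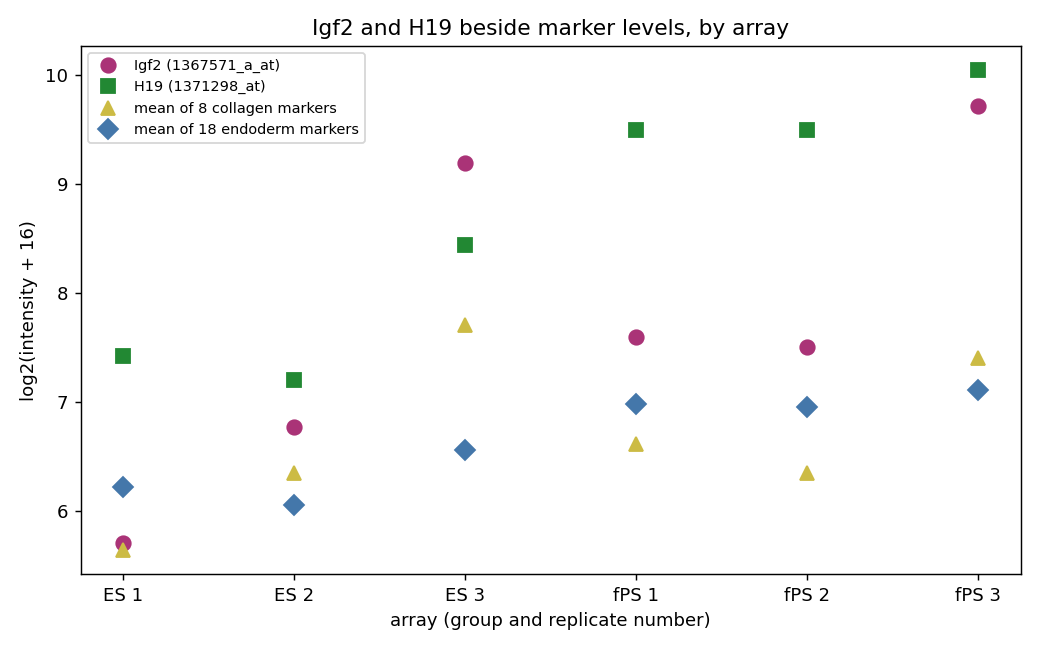
Level of Igf2, H19 and of the mean over 8 collagen and 18 endoderm markers on each of the 6 arrays, as log2(intensity + 16), 1 symbol per array. Igf2 and collagen are both highest on ES replicate 3 and fPS replicate 3, while H19 and the endoderm mean are higher on every fPS array than on any ES array.

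Igf1r, the signalling receptor, had lower means in fPS on both probe sets, with overlapping groups. On the brighter one the intensity was 204, 276 and 363 in ES and 166, 135 and 214 in fPS, so that 1 fPS array lay inside the ES range (difference -0.65, SE 0.269). On the other it was 88.1, 122 and 212 in ES and 112, 103 and 121 in fPS (difference -0.22, SE 0.294). There ES replicate 3 alone lay well above the others, and without it the difference was 0.088.

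Igf2r, the clearance receptor, was higher in fPS by both probe sets. On the brighter one the values were 308, 476 and 653 in ES and 781, 1216 and 1682 in fPS, with no overlap. The means were 479 ± 173 (SD, n = 3) and 1226 ± 451, a difference of 1.32 (SE 0.351), and without any 1 array it lay between 1.05 and 1.61. On the other they were 241, 434 and 745 in ES and 610, 1036 and 1515 in fPS, where ES replicate 3 was above fPS replicate 1 (difference 1.17, SE 0.439). Neither probe set was among the 3 called.

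**Figure D3:**
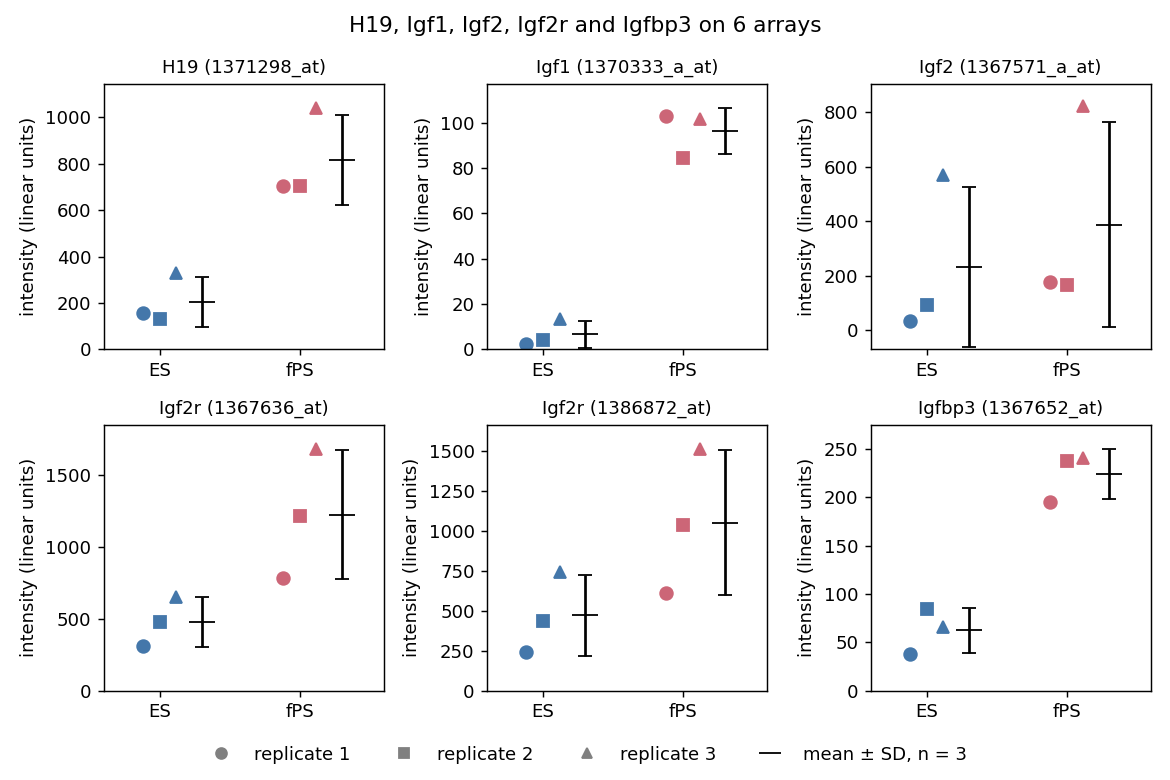
Linear intensity of 6 probe sets of H19, Igf1, Igf2, Igf2r and Igfbp3 on the 3 ES and 3 fPS arrays; symbols give the replicate number, and the bar beside them is the mean with its SD (n = 3). H19, Igf1, the brighter Igf2r probe set and Igfbp3 show no overlap, while for Igf2 the replicate 3 arrays of both groups (571 and 823) stand above the rest.

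Igfbp3, the main carrier of IGFs in blood and a gene that growth arrest and p53 can induce, was higher in fPS. On its brighter probe set it had 37.4, 84.3 and 65.6 in ES and 195, 237 and 241 in fPS, with no overlap. The means were 62.4 ± 23.6 (SD, n = 3) and 224 ± 25.6, a difference of 1.66 (SE 0.267), which was 1.20 with a pseudocount of 64. On the other it had 3.04, 36.0 and 69.4 in ES and 57.8, 70.0 and 90.9 in fPS, so that ES replicate 3 lay above fPS replicate 1 (difference 1.0, SE 0.482). That probe set was below the array median on ES replicates 1 and 2, and without ES replicate 1 its difference was 0.40. Its neighbour Igfbp1, the insulin-regulated binding protein, was below the array median on all 6 arrays.

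Igfbp2, a binding protein of fetal tissues, was at 1924, 2301 and 2699 in ES and 2839, 2246 and 2487 in fPS, at percentile 97.3 of all probe sets or higher on all 6 arrays. The means, 2308 ± 388 (SD, n = 3) and 2524 ± 298, differed by 0.14 (SE 0.219), within the spread. Igfbp4, which blocks IGF action until the protease PAPP-A cuts it, had 271, 244 and 206 in ES and 273, 307 and 220 in fPS (difference 0.13, SE 0.220). The groups of both genes overlapped.

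Igfbp5, a binding protein that attaches to the matrix, had 5 probe sets that did not go together. The brightest had 72.7, 64.7 and 127 in ES and 89.7, 126 and 65.8 in fPS (difference 0.088, SE 0.298), and its sign turned when ES replicate 1 or 2 or fPS replicate 2 was left out, with -0.11 as the lowest value. Of the 4 dim ones, 2 had no overlap, with intensities of 8.93 to 18.1 in ES against 19.5 to 32.1 in fPS and of 1.0 to 12.5 against 17.9 to 22.7. The latter is unspecific by its suffix. Among all 11949 probe sets below the array median on all 6 arrays, 1320 had no overlap, in either direction. The other 2 dim Igfbp5 probe sets overlapped, with differences of 0.098 and -0.36. Igfbp6, which prefers IGF2 over IGF1, had 73.0, 44.1 and 29.6 in ES and 70.8, 45.6 and 50.8 in fPS on its brighter probe set (difference 0.18, SE 0.284). Its other probe set lay between 1.27 and 18.3 (difference -0.093).

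**Figure D4:**
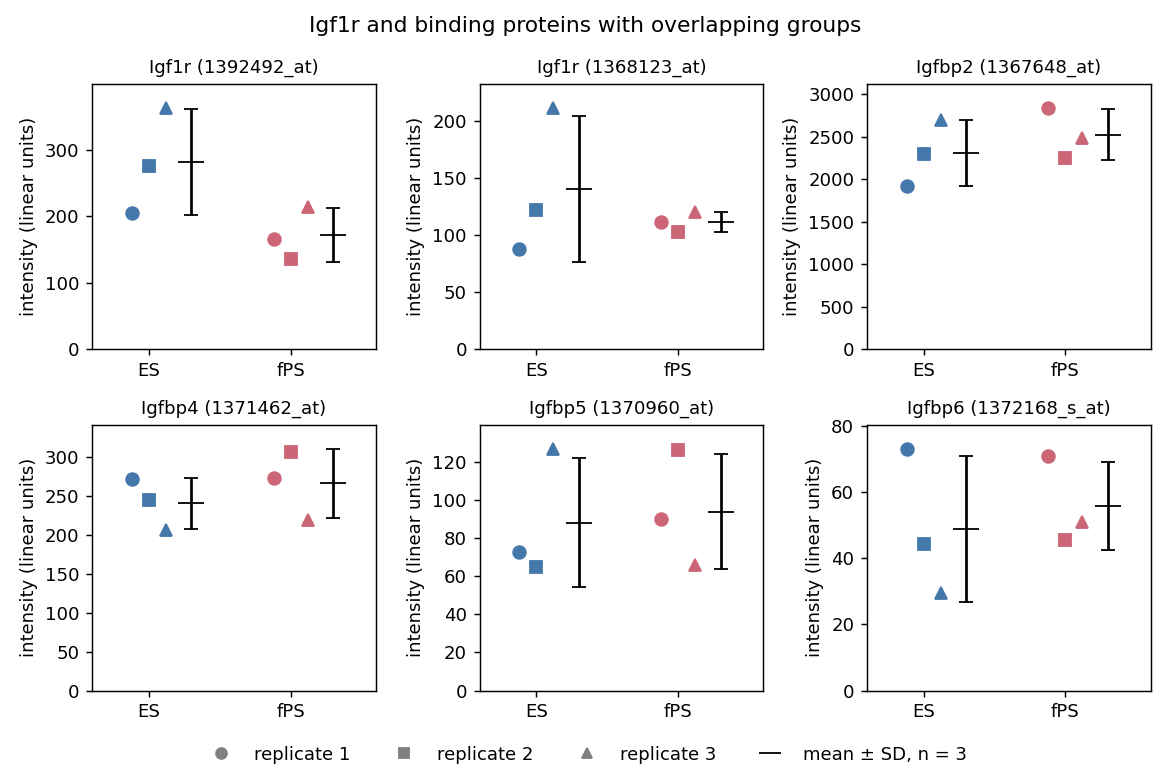
Linear intensity of both Igf1r probe sets and of the brightest probe sets of Igfbp2, Igfbp4, Igfbp5 and Igfbp6 on the 3 ES and 3 fPS arrays, with the mean and SD (n = 3) beside the symbols. In all 6 panels the groups overlap; for the brighter Igf1r probe set the means are 281 in ES and 172 in fPS, and for Igfbp2 they are 2308 and 2524.

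The promoters of the 3 protein-coding members that were higher in fPS by their brightest probe set with no overlap, Igf1, Igf2r and Igfbp3, are shown to compare their make-up. RefSeq promoters on GRCr8 were found for 9 of the 10 genes, with 2 starts for Igf2, and the 250 bases before each start were read 5′ to 3′ along the gene's strand. The windows are chr7:24172282-24172531 on the plus strand for Igf1, chr1:50526628-50526877 on the plus strand for Igf2r and chr14:86277945-86278194 on the minus strand for Igfbp3. Capitals mark CpG dinucleotides, the site of DNA methylation in mammals.
Igf1: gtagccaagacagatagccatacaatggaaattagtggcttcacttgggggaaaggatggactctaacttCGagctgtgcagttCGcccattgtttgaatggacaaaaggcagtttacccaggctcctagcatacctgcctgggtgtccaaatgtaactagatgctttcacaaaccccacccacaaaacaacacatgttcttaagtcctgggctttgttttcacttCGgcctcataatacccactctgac
Igf2r: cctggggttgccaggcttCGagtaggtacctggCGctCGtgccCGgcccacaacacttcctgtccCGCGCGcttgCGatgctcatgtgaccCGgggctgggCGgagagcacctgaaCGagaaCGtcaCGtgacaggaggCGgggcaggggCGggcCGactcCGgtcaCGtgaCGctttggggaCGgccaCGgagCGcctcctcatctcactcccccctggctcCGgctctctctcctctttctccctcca
Igfbp3: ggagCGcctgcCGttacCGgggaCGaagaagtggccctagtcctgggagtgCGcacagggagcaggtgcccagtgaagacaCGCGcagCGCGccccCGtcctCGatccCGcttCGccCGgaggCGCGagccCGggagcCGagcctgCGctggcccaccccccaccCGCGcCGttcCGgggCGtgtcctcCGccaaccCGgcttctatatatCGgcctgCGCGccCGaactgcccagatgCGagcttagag

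The 3 promoters were unlike in base composition. Igf1 held 3 CpG and 46.8% G and C, Igf2r 23 and 68.0%, and Igfbp3 31 and 71.6%, beside a median of 5 CpG (quartiles 2 and 15) and 51.2% over 33469 rat promoters of the same length. The GC box, searched as GGGCGG on both strands, was found at 2 places in Igf2r and at none in Igf1 or Igfbp3. It was present in 4 of the 10 member promoters and in 30.5% of all promoters. The AP-1 motif, searched as TGANTCA, was in 0 of 10 and in 6.34% of all. The TATA box, searched as TATAAA, was in 1 of 10 (Igfbp4) and 12.9% of all, and the CCAAT box, by those letters, in 0 of 10 and 34.0% of all. No member promoter held more than 1 of these 4 kinds of motif. A match describes the letters of the window and is not a measured site.

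The genes whose pattern over the 6 arrays came nearest were looked up for the 3 members that ranged most widely, Igf2, H19 and Igf1, by their brightest probe set. The measure was the root mean square difference of log2 values after subtracting each gene's own mean, among 9037 genes of above-median brightness, with no test. For Igf2 these were Col5a2, a fibrillar collagen chain (0.394), and Vim, the intermediate filament of mesenchymal cells (0.488). Col5a2 had 16.9, 68.5 and 765 in ES and 105, 112 and 487 in fPS. For H19 they were Ackr3, a scavenging chemokine receptor (0.185), and Rragd, a GTPase of amino acid sensing (0.225), and for Igf1 the aldo-keto reductase Akr1b8 (0.263) and again Ackr3 (0.270). Ackr3 lay between 8.09 and 33.7 in ES and between 105 and 124 in fPS.

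Of other genes that surround or carry the pathway, 85 were listed in 6 groups and 78 had a probe set; each was taken by its brightest one. By the same limma fit and adjustment, 0 of 78 rose and 0 fell, beside 0.57% higher and 0.288% lower of all 14217 genes. At an unadjusted p under 0.05 there were 17 of 78 (21.8%), against 17.5% of all genes. With eBayes set to trend and robust 6 of 78 (7.69%) were called, beside 1.99% of all probe sets, and with the mean over a gene's probe sets 2 of 78 (2.56%), beside 2.11% of all genes. The groups did not overlap for 8 genes higher and 11 lower in fPS, where the shares over all genes were 11.3% in each direction. The median difference of the 78 was -0.042.

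Of 15 genes of the insulin receptor, its adaptors and their inhibitors, 0 passed; 2 were higher and 0 lower on every fPS array, a pattern that 11.3% of all genes showed in each direction here and in the lists that follow. The adaptors Shc1 and Grb2, the brightest, had differences of -0.072 (SE 0.245) and 0.045 (SE 0.230). Of 20 genes of the PI3K, AKT and mTOR branch, 0 passed, and 5 were lower on every fPS array with 0 higher. Rheb, the GTPase that switches on mTOR, and Eif4ebp1, a repressor of translation that mTOR inactivates, had differences of -0.27 and -0.61; Eif4ebp1 was at 2314, 2362 and 2161 in ES and 1777, 1428 and 1289 in fPS (adjusted p = 0.208 by limma).

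Of 10 further binding proteins, proteases and their inhibitors, 0 passed, with 2 higher and 2 lower on every fPS array. Igfbpl1, a protein related to the binding proteins, had 1993, 1125 and 1242 in ES and 878, 650 and 371 in fPS (difference -1.21, SE 0.348, adjusted p = 0.147 by limma). Mmp2, a matrix protease that is also on the fibroblast list, had a difference of 1.37 (SE 0.352) and was called without the dimmest 30% or 50% of probe sets. Of 13 RNA-binding and transcription factors of Igf2 and H19, 0 passed and 4 were lower on every fPS array with 0 higher. Igf2bp2, which binds Igf2 mRNA, had 2961, 3340 and 4837 in ES and 1879, 2009 and 1594 in fPS (difference -0.99, SE 0.245, adjusted p = 0.101 by limma); it was called with the trend and robust settings and without the dimmest 50% of probe sets. Trim28, a co-repressor that guards imprints, had a difference of -0.19 (SE 0.269). Zfp57, 1 of the 4 that were lower on every fPS array, had one of -1.10 (SE 0.348, adjusted p = 0.181 by limma).

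Of 10 genes of the mannose 6-phosphate system in which Igf2r works, 0 passed, with 2 higher and 0 lower on every fPS array. M6pr, the smaller, cation-dependent receptor, and Gga2, an adaptor that sorts both receptors, had differences of -0.31 (SE 0.253) and 0.35 (SE 0.276). Of 10 other ligands and parts of the growth hormone pathway, 0 passed, with 2 higher and 0 lower on every fPS array. Jak2 and Stat5a, which carry the growth hormone signal, had differences of -0.35 and 0.17, and Ins2, the named gene next to Igf2 on the side away from H19, one of -0.39 (SE 0.292).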

How the data were processed

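Deposited values were intensities on a linear scale, 1 per probe set and array, as the range of the deposited table shows. How probes were summarised and arrays scaled is not given in the sources used here. Biotin-labelled cRNA on Affymetrix arrays is stated per the labels' protocols. 57 control probe sets were left out. Symbols came from the platform annotation (20826 probe sets with 1 symbol, 436 with several, 9780 with none); chromosomes, neighbours and sequences came from RefSeq tables of GRCr8.

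The comparison used lmFit and eBayes of limma 3.58.1, under R 4.3.3, on log2(intensity + 16), with Benjamini-Hochberg adjustment over 31042 probe sets and a threshold of 0.05, without further normalization or filter. The fit was checked on simulated data. Genes were counted by their brightest probe set. Figures used matplotlib 3.10.9 in Python 3.11.15. The rule for names took all members, 2 genes per pathway list (called genes first, then the brightest) and the 2 nearest patterns of 3 members. Igfbp1, Ins2, Zfp57, Sox17, Gata4, and the single markers were named besides, after their values were seen. Members and lists were chosen with earlier results of these data known. Alternatives covered normalization, pseudocount, dim probe sets, eBayes settings, the replicate number as a block, unspecific probe sets, the mean over probe sets and leaving out arrays. The number of arrays limits the precision.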

Additional observations from a re-analysis of the deposited data

How the results depend on the processing

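The count of 3 called members was the same after quantile normalization, centring, without the dimmest 30% or 50% of probe sets and with the trend and robust settings, though without the dimmest 50% the Igf1 probe set was filtered out and the brighter Igf2r probe set was called. It was 2 without probe sets of unspecific suffix, 1 with a pseudocount of 64 and 0 with a pseudocount of 1 or without both arrays numbered 3, and from 0 to 1 without single arrays. The count of 0 pathway genes became 6 of 68 without the dimmest 30%, where 3.49% of all probe sets were called. Without the dimmest 50% it was 5 of 55, beside 5.79% of all. It was 6 of 78 with the trend and robust settings (1.99% of all) and 2 of 78 with the mean over probe sets (2.11% of all genes). The 6 members with groups apart became 3 of the 12 left without the dimmest 50%, where 27% of all probe sets were apart. They became 16 without both arrays numbered 3 (46.4% of all probe sets) and 6 to 11 without single arrays (26.1% to 32.7% of all). Fewer arrays make overlap rarer. The replicate number as a block gave 2 called members (Igf1 and H19) and 107 probe sets in all. Same-numbered arrays of the groups correlated in their deviations by 0.15, 0.020 and 0.075, and differently numbered ones by -0.145 to 0.054. The labels name no pairing, so the numbers were not taken as pairs. Whether arrays of the same number share an effect is unknown. Over all probe sets the count of 215 was 0 with a pseudocount of 1 (3943 at an unadjusted p under 0.05 by limma) and without both arrays numbered 3 (4618 unadjusted), from 0 to 162 without single arrays, 41 with a pseudocount of 64, 337 after quantile normalization, 376 centred, 619 with the trend and robust settings, 759 without the dimmest 30% and 899 without the dimmest 50%. Of 23 member differences, 16 kept their sign in every setting run and 7 turned in some, 0 of these turns under quantile normalization or centring; the 7 were both Igfbp6, 2 of Igfbp5, 2 dim ones of Igf2 and the dimmer of Igf1r. Signal near background limits the 9 dim probe sets.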

Other observations

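Among the genes around the pathway, those given here did not pass by limma over all probe sets. They were called without the dimmest 30% and with the trend and robust settings, and were chosen after their values were seen. Plagl1, Lin28a and Rps6kb1 were also called without the dimmest 50%. With the mean over a gene's probe sets, Plagl1 and Stc2 were called. Both have 1 probe set, so that setting left their own values unchanged and adjusted over 14217 genes instead. Plaur and Rps6kb1, with 2 probe sets each, were not called in it. Plagl1, an imprinted transcription factor known to act on Igf2 and H19, had 144, 82.9 and 86.3 in ES and 19.7, 10.9 and 42.3 in fPS (difference -1.62, SE 0.327, adjusted p = 0.0617). Lin28a, which binds Igf2 mRNA and is also on the pluripotency list, had 1559, 866 and 1161 in ES and 669, 351 and 424 in fPS (difference -1.30, SE 0.308, adjusted p = 0.0933). Stc2, an inhibitor of the PAPP-A proteases, had 70.7, 60.0 and 64.6 in ES and 12.8, 32.5 and 5.79 in fPS (difference -1.38, SE 0.298, adjusted p = 0.0765). Plaur, the urokinase receptor, a partner of Igf2r, had 12.2, 3.04 and 22.7 in ES and 47.9, 61.4 and 105 in fPS (difference 1.62, SE 0.331, adjusted p = 0.0640). Rps6kb1, a kinase of the mTOR branch, had 301, 309 and 296 in ES and 153, 138 and 55.0 in fPS (difference -1.37, SE 0.327, adjusted p = 0.0933 by limma). In each of these genes the groups did not overlap, as in 11.3% of all genes in each direction.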
